A study of Mus musculus with 10 samples.

Results

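The genes described here make cholesterol and fatty acids in mouse regulatory T cells (Tregs), the Foxp3-expressing T cells that restrain immune responses. They were chosen by name: 28 symbols of the mevalonate arm, the conversion of squalene to cholesterol, the sterol regulators, sterol carriers and fatty acid synthesis. Of these, 27 were found among the 23992 gene symbols of the files. Msmo1, a sterol C4-methyl oxidase, had no row under that symbol, and its RefSeq accession stood under the older symbol Sc4mol. Its values are given separately and are not counted.

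The 10 RNA-seq libraries formed 4 groups. Natural Tregs from the spleen of wild-type C57BL/6J mice were cultured for 24 h with anti-CD3 and anti-CD28, either alone (the TCR group, 2 libraries) or with TSLP (the TCR + TSLP group, 2 libraries). TSLP, thymic stromal lymphopoietin, is an epithelial cytokine whose receptor chain is encoded by Crlf2. Lung Tregs came from ovalbumin-immunized mice on the C57BL/6J background that were either Foxp3YFP-Cre (the control, labelled wild-type, 3 libraries) or Crlf2fl/fl Foxp3YFP-Cre (Crlf2-deleted, 3 libraries). The Cre recombinase is driven by Foxp3 and is carried by the lung control group too. Age, sex, pooling of animals, and whether replicates were separate animals or cultures are not stated in the labels, and the p-values cover the spread between these libraries alone, which may be technical.

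Cholesterol is built from acetyl-CoA through mevalonate, isoprenoid units and squalene, and the transcription factor SREBP-2, encoded by Srebf2, raises the genes of this route when membrane sterol is low. SREBP-1, encoded by Srebf1, acts more on fatty acid genes, and Insig1 holds both factors in the endoplasmic reticulum when sterol is plentiful. T cells raise both routes after activation to supply new membrane, and the mevalonate arm also provides the lipid groups attached to small GTPases.

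Promoter sequence was examined because SREBP factors bind sterol regulatory elements, commonly beside boxes for NF-Y and Sp1. RefSeq promoter windows of 300 bases (250 before and 50 after a start, GRCm38.p6) were matched by symbol to 22 of the 28 genes. The letters TCACNCCAC, a sterol regulatory element core searched on both strands, were found in 1 of the 22 (4.55%), Hmgcs1, and in 1.44% of all 27025 genes with a window. The NF-Y letters CCAAT, on either strand, were found in 19 of 22 (86.4%) beside 41.1% of all genes, and the GC box GGGCGG in 18 of 22 (81.8%) beside 38.2%. The search ran over every window of a gene, and these are matches to letters, not measured binding. The background held every gene with a window, expressed here or not, and the share among expressed genes was not examined.

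The stretches below, of 80 bases each, are shown for genes that rose with TSLP (Hsd17b7, Srebf2, Idi1, Nsdhl and Hmgcs1) and for a pair that fell (Ebp and Mvd). Among genes called in that comparison with exactly 1 window, they had the most pronounced rises and falls. Each is the run of 80 bases before the start that held the most matches, with the sterol element letters given more weight. Each is written 5′ to 3′ on the gene's strand, with the 3 motifs in capitals on either strand.
Hsd17b7: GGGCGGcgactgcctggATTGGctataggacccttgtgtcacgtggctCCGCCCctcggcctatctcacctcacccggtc
Srebf2: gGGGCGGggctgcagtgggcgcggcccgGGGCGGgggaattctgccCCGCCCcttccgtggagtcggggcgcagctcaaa
Idi1: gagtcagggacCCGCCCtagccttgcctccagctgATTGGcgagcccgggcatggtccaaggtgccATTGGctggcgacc
Nsdhl: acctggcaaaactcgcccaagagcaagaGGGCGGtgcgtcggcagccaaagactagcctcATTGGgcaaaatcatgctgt
Hmgcs1: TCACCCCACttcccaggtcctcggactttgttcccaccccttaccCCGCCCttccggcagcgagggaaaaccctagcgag
Ebp: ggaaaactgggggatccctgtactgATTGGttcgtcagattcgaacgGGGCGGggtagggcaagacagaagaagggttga
Mvd: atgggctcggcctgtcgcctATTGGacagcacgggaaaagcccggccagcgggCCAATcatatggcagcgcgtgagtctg

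All 7 stretches lie before the transcription start that RefSeq gives. They are chr1:169969308-169969387 (minus strand), chr15:82147189-82147268 (plus), chr13:8885526-8885605 (plus), chrX:72918441-72918520 (plus), chr13:119690214-119690293 (plus), chrX:8193513-8193592 (minus) and chr8:122443423-122443502 (minus), in the build of the files. In these stretches the rising Srebf2 had 3 GC boxes and no CCAAT, though its whole window held 1 CCAAT. Idi1, which rose, and Mvd, which fell, each had 2 CCAAT boxes in their stretches. Both genes that rose and genes that fell carried these letters, but the stretches were chosen for their matches, so no conclusion is drawn.

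Reads assigned to genes ranged from 27237312 to 51671903 in spleen libraries and from 1439675 to 18349039 in lung libraries, with the fewest in lung control 2. Crlf2 itself (chr5:109554709-109559128, GRCm38) was at 92.8, 146 and 105 CPM (reads scaled to library size, after TMM) in the lung controls and at 9.06, 6.73 and 3.55 in the Crlf2-deleted libraries (log2 fold change -4.16, adjusted p = 0.00465), so that the lung labels and this gene's level did not conflict. With TSLP in spleen, Crlf2 was at 55.9 and 61.4 CPM in the TCR libraries and at 44.1 and 42.8 (log2 fold change of -0.43, adjusted p = 0.00799). Foxp3, Cd3e, Cd4 and Il2ra, markers of Tregs or of T cells at large, were detected in every library. RNA of other lung cells was also present. The 12 epithelial markers summed to 5259 to 27990 RPKM (reads scaled to library size and transcript length) in lung controls and to 1170 to 8120 in Crlf2-deleted libraries, and Sftpc, Sftpa1, Scgb1a1 and Scgb3a2 were listed at 0 in all 4 spleen libraries. The 8 Treg and T cell markers summed to 212.5 to 274.4 RPKM in lung controls and to 415.2 to 532.3 in Crlf2-deleted libraries, without overlap. Their median log2 fold change was 0.39 and none was called. The part of this difference in the lipid gene values was not tested. Lung control 3 stood apart, with all 8 of these markers lowest there among the controls and haemoglobin transcripts at 9.83% of its gene reads. In lung control 1 the club cell gene Scgb1a1 took 7.2%. Lung results are given with and without lung control 3 where it decides them. In bulk samples like these, fewer cells of a type and less RNA per cell cannot be told apart.

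In spleen Tregs, TSLP was accompanied by a split within the lipid genes. Members of every role rose, with the highest folds for the desaturase Scd1 (1.81-fold), the sterol reductase Hsd17b7 (1.72-fold) and the desaturase Scd2 (1.49-fold), and 4 enzymes fell, led by Pmvk to 0.50 of its TCR level. In edgeR's quasi-likelihood test with Benjamini-Hochberg adjustment and a threshold of 0.05, 11 of 27 genes were called higher and 4 lower. Of all 13214 genes tested, 22.7% were called higher and 23.1% lower (45.8% together), so calls were common everywhere in this comparison, and the share of members called was above that background for rises and below it for falls. The members' median log2 fold change was 0.21, beside 0.01 for all genes tested. Both TSLP libraries lay above both TCR libraries for 16 members, and below for 9. Over all genes these shares were 38.1% and 37.3% (75.4% together). At an unadjusted p under 0.05, 18 members passed beside 53.9% of all genes, and DESeq2 called 12 members higher and 4 lower beside 39.4% of genes in either direction.

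**Figure D1:**
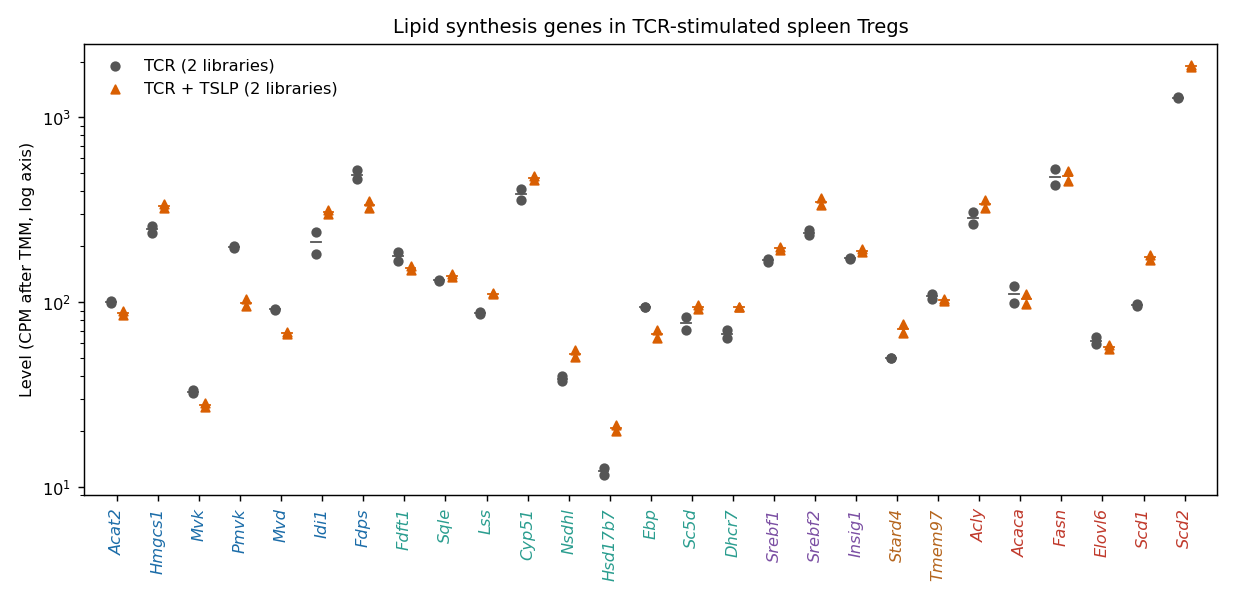
Level of each of the 27 genes in the 4 spleen libraries (CPM after TMM, log axis), with circles for TCR, triangles for TCR + TSLP and short lines for group means. Scd2 had the highest level of the 27 genes in all 4 libraries, and the points of the groups separate furthest for Pmvk, Hsd17b7 and Scd1.

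The mevalonate arm held changes in both directions, with 2 of 7 enzymes higher and 3 lower. Hmgcs1, which makes HMG-CoA, was at 238 and 259 CPM in the TCR libraries and at 340 and 324 with TSLP, without overlap. Its log2 fold change was 0.42 (SE 0.09, adjusted p = 0.00653). Idi1, which isomerizes the isoprenoid building blocks, was at 182 and 240 CPM and at 313 and 301 with TSLP. The TCR pair was spread more widely than the TSLP pair, and the difference on the log2 scale was 0.54 (SE 0.13, adjusted p = 0.0106).

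Pmvk, phosphomevalonate kinase, went the other way. It was at 201.5 and 196.3 CPM in the TCR libraries and at 104 and 95.02 with TSLP, the most pronounced fall among the members (log2 fold change of -1.0 with an SE of 0.09, adjusted p = 0.000194). Fdps, which makes farnesyl diphosphate for sterols and protein prenylation, was at 462 and 515 CPM and at 351 and 322 with TSLP (log2 fold change of -0.54 with an SE of 0.10, adjusted p = 0.00313). Mvd, the decarboxylase between them, was at 92.1 and 90.8 CPM and at 69.0 and 66.9 with TSLP (log2 fold change of -0.43 with an SE of 0.09, adjusted p = 0.00527). For all 3 genes, both TSLP libraries were below both TCR libraries. The Mvd row is a non-coding RefSeq transcript of the gene. The other mevalonate members were not called. Acat2, which joins acetyl-CoA units, had a log2 fold change of -0.20 (adjusted p = 0.0987) and Mvk, mevalonate kinase, of -0.23 (adjusted p = 0.0843). Acat3, a near-identical neighbour of Acat2 chosen after its values were seen, was at -0.96, and no source used here gives how reads were divided between the pair.

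From squalene to cholesterol, 5 of the 9 enzymes with a row were higher with TSLP and 1 was lower. Hsd17b7, a 3-ketosteroid reductase of the demethylation complex, had low levels of 11.6 and 12.7 CPM in the TCR libraries and 20.1 and 21.7 with TSLP (log2 fold change of 0.78 with an SE of 0.11, adjusted p = 0.00128). Dhcr7, which makes cholesterol from 7-dehydrocholesterol, was at 63.7 and 70.4 CPM and at 94.0 and 94.4 with TSLP (log2 fold change of 0.49 with an SE of 0.09, adjusted p = 0.00401). Nsdhl, the C4 decarboxylating dehydrogenase, was at 37.5 and 39.7 CPM and at 50.4 and 54.9 with TSLP (log2 fold change of 0.45 with an SE of 0.10, adjusted p = 0.00754). In each of these genes the groups did not overlap.

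Lss, which closes the sterol rings to form lanosterol, was at 85.8 and 88.0 CPM in the TCR libraries and at 111 and 111 with TSLP (log2 fold change 0.36, adjusted p = 0.0105). Cyp51, the lanosterol demethylase, was at 355 and 411 CPM and at 483 and 460 with TSLP, with a smaller log2 fold change of 0.30 (adjusted p = 0.0381). Ebp, the sterol isomerase, was the enzyme of this stretch that fell, from 93.9 and 94.3 CPM to 70.7 and 64.0 (log2 fold change of -0.48 with an SE of 0.09, adjusted p = 0.00427). Sc5d, the desaturase that precedes Dhcr7, lay just outside the threshold with a log2 fold change of 0.30 (adjusted p = 0.0502). Fdft1, squalene synthase, and Sqle, squalene epoxidase, had values of -0.21 (adjusted p = 0.1) and 0.09 (adjusted p = 0.421). Msmo1, read from its older symbol, was at 116 and 142 CPM and at 132 and 127 with TSLP, so that its groups overlapped (log2 fold change 0.01, adjusted p = 0.953).

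Among the regulators, Srebf2 was at 245 and 230 CPM in the TCR libraries and at 334 and 365 with TSLP, with no overlap (log2 fold change of 0.56 with an SE of 0.09, adjusted p = 0.00207). Srebf1 had a log2 fold change of 0.21 (adjusted p = 0.067) and Insig1 of 0.14 (adjusted p = 0.206), and neither was called. Stard4, a carrier that moves cholesterol between membranes, was at 50.1 and 50.0 CPM and at 68.0 and 76.0 with TSLP (log2 fold change of 0.53 with an SE of 0.10, adjusted p = 0.00364). Tmem97, the sigma-2 receptor, a membrane protein tied to cholesterol trafficking, was at 104 and 111 CPM and at 104 and 101 with TSLP (log2 fold change -0.07, adjusted p = 0.531).

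Of the fatty acid members, 2 desaturases were called. Scd1 and Scd2, the stearoyl-CoA desaturases that make monounsaturated fatty acids, were both higher, and the other 4 of the 6 members were not called. Scd1 (chr19:44394450-44407709) was at 95.5 and 98.2 CPM in the TCR libraries and at 169 and 181 with TSLP (log2 fold change of 0.86 with an SE of 0.09, adjusted p = 0.000305). Scd2 (chr19:44293676-44306864) was at 1279 and 1269 CPM and at 1861 and 1927 with TSLP (log2 fold change of 0.57 with an SE of 0.09, adjusted p = 0.00152). The replicates of Scd2 differed far less than the groups did. Scd3, a close relative of the pair chosen after its values were seen, was at 0.97 (adjusted p = 0.0043), and reads shared between these genes may be split in a way the sources used here do not give.

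Acly, which makes cytosolic acetyl-CoA, had a log2 fold change of 0.24 (adjusted p = 0.0954), and was called with no filter on low counts (adjusted p = 0.0387) and with library totals alone (adjusted p = 0.00685). Acaca, the acetyl-CoA carboxylase, was at 122 and 99.1 CPM in the TCR libraries and at 97.4 and 111 with TSLP, and Fasn, fatty acid synthase, at 527 and 429 CPM and at 449 and 513. For both enzymes the groups overlapped, and the log2 fold changes were -0.08 (adjusted p = 0.608) and 0.01 (adjusted p = 0.959). Elovl6, which elongates the product of Fasn, was at -0.11 (adjusted p = 0.37).

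**Figure D2:**
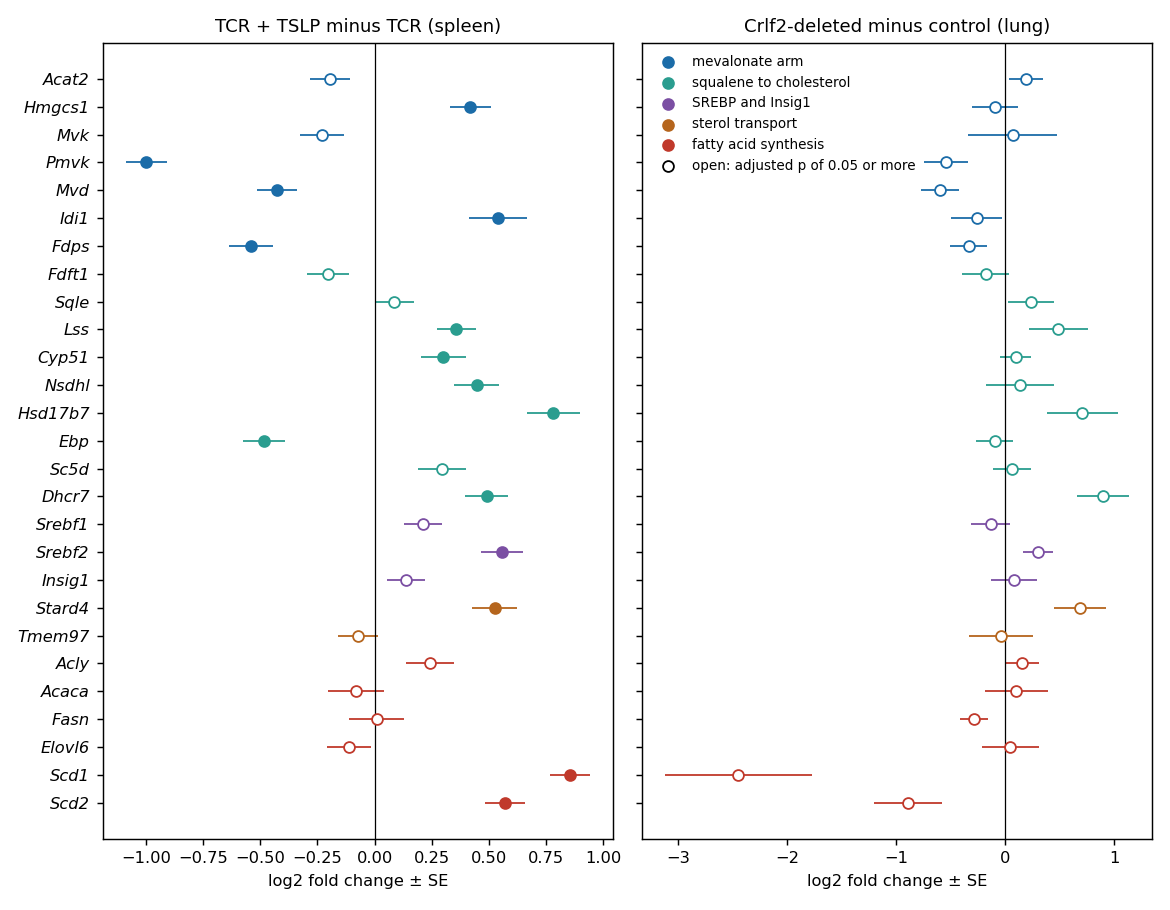
Log2 fold change with its SE for each of the 27 genes with TSLP (left) and with Crlf2 deletion (right), coloured by role, with filled points for an adjusted p under 0.05. The left panel has 11 filled points above and 4 below 0, and the right panel, on a wider scale, has none.

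The members that fell had short transcripts, and fold change went with transcript length across all genes. In TSLP over TCR, the median log2 fold change of all tested genes was -0.23 for transcripts of 1000 to 2000 bases (3090 genes), 0.10 for 2000 to 4000 bases (5377 genes) and 0.20 for 4000 to 8000 bases (3049 genes). The 4 members that fell had rows of 1190 bases (Pmvk), 1461 (Fdps), 1741 (Ebp) and 1864 (Mvd), and of the 6 members in the shortest of these classes none was called higher. With the length trend removed, Pmvk remained lower at -0.62, Ebp at -0.33, Mvd at -0.31 and Fdps at -0.29, all called (adjusted p from 0.00171 to 0.0234). That fit called 12 members higher, of which 10 were among the 11, and Cyp51 was not (0.17, adjusted p = 0.24). Tmem97, with a row of 1333 bases, turned from -0.07 to a called rise of 0.24 (adjusted p = 0.0403) in that fit, and the call was lost with the replicate block added (adjusted p = 0.106). With length and GC trends removed together, 9 members were called higher, Tmem97 among them (0.27, adjusted p = 0.0202), and 3 lower, of which 8 and 2 were shared. The calls on Hmgcs1, Idi1, Cyp51, Fdps and Mvd were then lost, with Fdps at -0.20 (adjusted p = 0.0939) and Mvd at -0.13 (adjusted p = 0.187).

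**Figure D3:**
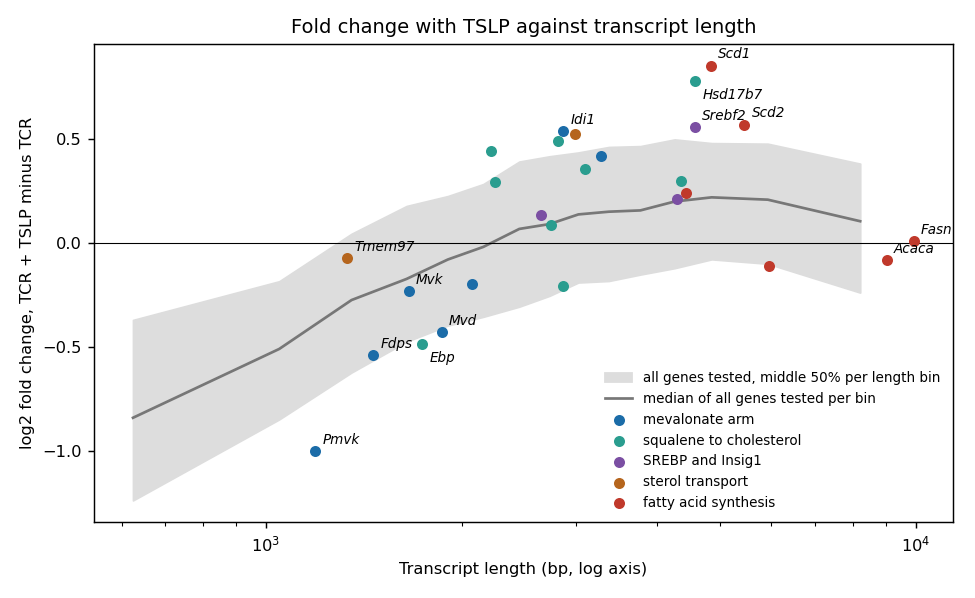
Log2 fold change with TSLP against transcript length (bases, log axis), with points for the 27 genes and, for all 13214 genes tested, a line for the median and a band for the middle 50% in each of 15 length classes. The 4 genes that fell sit at the short end, below the median line, and Scd1 and Hsd17b7 lie above the band.

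The scale also bears on the split. TMM sets the typical gene near 0, and without it (library totals alone) the median of all genes was 0.24 and the members split into 16 higher and 3 lower. On the log2(RPKM + 1) scale with limma, where the median of all genes was 0.20, 16 members were called higher and only Pmvk lower (-0.62, adjusted p = 0.00644). Fdps (-0.17), Ebp (-0.11) and Mvd (-0.05) were not called there. With library totals alone, Fdps (-0.31, adjusted p = 0.0198) and Ebp (-0.25, adjusted p = 0.0424) were still called lower, and Mvd (-0.20, adjusted p = 0.0816) was not. Without TCR + TSLP replicate 2, 7 members were called higher and 2 lower, and with all 4 groups sharing one estimate of the spread, Srebf2 alone was called higher and Pmvk alone lower. The calls on Pmvk, Fdps, Idi1, Hsd17b7, Dhcr7, Srebf2, Scd1 and Scd2 held whichever single library was left out, and those on Hmgcs1, Mvd, Lss, Cyp51, Nsdhl, Ebp and Stard4 were lost in at least 1 such fit.

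The rest of the pathway was read from named lists, beside the 22.7% of all genes called higher and 23.1% called lower. Of the 6 tested genes of other sterol synthesis, 3 were higher and 0 lower with TSLP. Among those that rose were Ggps1, which makes geranylgeranyl diphosphate (log2 fold change of 0.39, adjusted p = 0.0146), and Lbr, a sterol reductase of the nuclear envelope (0.25, adjusted p = 0.0395). Of 10 genes of SREBP control and sterol uptake, 4 rose and 2 fell, the latter near the share over all genes. Mbtps2, the site-2 protease that releases SREBP, was at 0.55, and Insig2 at 0.44. Pnpla3, a lipid droplet acyltransferase and lipase, fell by 2.36 on the log2 scale, from 6.24 and 2.59 CPM to 0.91 and 0.82, and by 1.60 to 2.84 with single libraries left out, the least without TCR replicate 1.

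Of 16 tested genes of other fatty acid synthesis and desaturation, 7 rose and 2 fell. Fads2, the delta-6 desaturase, was at 41.4 and 39.3 CPM in the TCR libraries and at 69.3 and 78.8 with TSLP (log2 fold change 0.88, adjusted p = 0.00051). Its row has 1508 bases, in the class whose median was below 0. Elovl5, an elongase of polyunsaturated chains, was at 0.70, and Oxsm, an enzyme of mitochondrial fatty acid synthesis, at 0.62. Among 22 genes of fatty acid activation and oxidation, 5 rose and 2 fell, so that 31.8% were called beside 45.8% of all genes. The acyl-CoA synthetases Acsl3 and Acsl4 rose by 0.83 and 0.70, and Acaa2, a mitochondrial thiolase, fell by 0.54.

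Sterol export and isoprenoid use were read in the same way. Of 9 tested genes of LXR targets, oxysterols and sterol efflux or storage, 2 rose and 1 fell (33.3% called, beside 45.8% of all genes), namely the exporter Abcg1 (0.58) and the esterase Nceh1 (0.38) upward and Apoe, an apolipoprotein, downward (-0.89). Of 14 genes of prenylation and other isoprenoid use, 5 rose and 2 fell, among them the CAAX protease Zmpste24 (0.51) and the prenyltransferase subunit Pggt1b (0.64), both upward. Cell cycle genes moved beside them, with 10 of 20 higher and 3 lower. Mcm4, a replicative helicase subunit, was at 0.89, Birc5, survivin, at -0.63 and Tyms, thymidylate synthase, at -0.60. Markers of other cells also moved, and 4 of 6 B cell genes were lower with TSLP (summed RPKM 25.7 and 26.6 in the TCR libraries, 20.2 and 20.1 with TSLP). Their part in the lipid gene values was not tested.

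In lung Tregs, Crlf2 deletion was accompanied by no called change among the 27 genes, and the members with the lowest unadjusted p pointed in both directions. Dhcr7 and Stard4 were higher in Crlf2-deleted libraries, whereas Scd1, Scd2, Mvd, Pmvk and Fasn were lower, all 7 at an unadjusted p under 0.05 only. In edgeR's test 0 of 27 were called higher and 0 lower, where 0.771% and 1.01% of all 12717 genes tested were (1.79% together). At the unadjusted threshold 15.9% of all genes passed. DESeq2 called 1 member higher and 1 lower, and 6.88% of all genes in either direction. The members' median log2 fold change was 0.06, beside -0.04 for all genes. The groups did not overlap for 5 members that were higher and 4 that were lower, where the shares over all genes were 10.4% and 11.6%.

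Dhcr7 (chr7:143823167-143848410) was at 21.0, 29.4 and 39.6 CPM in the lung controls and at 54.5, 58.9 and 55.1 in the Crlf2-deleted libraries. The groups did not overlap, and the control libraries were more spread than the deleted ones. Its log2 fold change was 0.90 (SE 0.24, adjusted p = 0.115 in edgeR's test, 0.0202 in DESeq2). Lung control 3 was the highest control, and without it the value was 1.21 (adjusted p = 0.0216), a call. With limma on log2(RPKM + 1) it was called too (adjusted p = 0.0323).

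Stard4 was at 42.1, 50.6 and 27.3 CPM in the lung controls and at 71.5, 56.3 and 61.5 in the Crlf2-deleted libraries (log2 fold change of 0.68 with an SE of 0.24, adjusted p = 0.207). Lung control 3 was the lowest of the 6, and without it the value was 0.47 (adjusted p = 0.234). Hsd17b7 was at 12.7, 14.4 and 7.48 CPM and at 17.7, 16.9 and 20.6 (log2 fold change of 0.71 with an SE of 0.32, adjusted p = 0.332). Srebf2, at 406, 304 and 305 CPM and at 419, 411 and 425, and Acat2 were the remaining members with all deleted libraries above all controls. Their log2 fold changes were 0.30 (adjusted p = 0.329) and 0.19 (adjusted p = 0.609).

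Scd1 had the lowest log2 fold change among the members in this comparison. It was at 24.3, 8.21 and 55.8 CPM in the lung controls and at 7.498, 6.646 and 2.663 in the Crlf2-deleted libraries. These levels rest on 182, 12 and 590 reads in the controls and on 77, 83 and 51 in the deleted libraries. The groups did not overlap in CPM, though lung control 2 lay close to the highest deleted library, and on the RPKM scale they overlapped (0.26 in lung control 2 beside 0.35 in deleted library 1). The difference on the log2 scale was -2.45 (SE 0.67, adjusted p = 0.129 in edgeR's test, 0.00322 in DESeq2), and without lung control 3 it was -1.62 (adjusted p = 0.163). Scd2 was at 40.7, 24.6 and 49.7 CPM and at 26.29, 14.89 and 21.98, with overlapping groups (log2 fold change of -0.89 with an SE of 0.31, adjusted p = 0.206). Without lung control 3 it was at -0.67.

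RNA of other lung cells also differed between these libraries, in more than one pattern. Sftpc, the surfactant gene of alveolar type 2 cells, was at 36.9, 14.1 and 110.8 RPKM in the lung controls and at 21.6, 6.94 and 6.73 in the Crlf2-deleted libraries. Among the controls, Sftpc, Scd1 and Scd2 were highest in lung control 3, whereas the other 11 epithelial markers were highest in lung control 1. Also highest in lung control 3 were all 6 B cell, all 6 dendritic cell and all 6 CD8 T cell and NK cell genes. The same held for 9 of 10 neutrophil, eosinophil and mast cell genes, which summed to 6.80, 7.83 and 141.6 RPKM in controls. In deleted libraries these summed to 5.39, 6.86 and 4.81. The summed epithelial markers were at 27990, 5259 and 9698 RPKM in controls and at 6948, 8120 and 1170 in deleted libraries, so these ranges overlapped. All 11 tested epithelial markers had a negative log2 fold change, from -2.54 to -0.60, and none was called. Summed macrophage and monocyte markers were at 60.8, 93.6 and 1257 RPKM in controls and at 424, 419 and 509 in deleted libraries, which were above lung controls 1 and 2, unlike Scd1. Summed red cell genes were at 350, 1174 and 36760 and at 691, 567 and 527. Adipocyte markers summed to at most 1.23 RPKM in any lung library. The part of these cells in the Scd1 and Scd2 values was not tested.

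**Figure D4:**
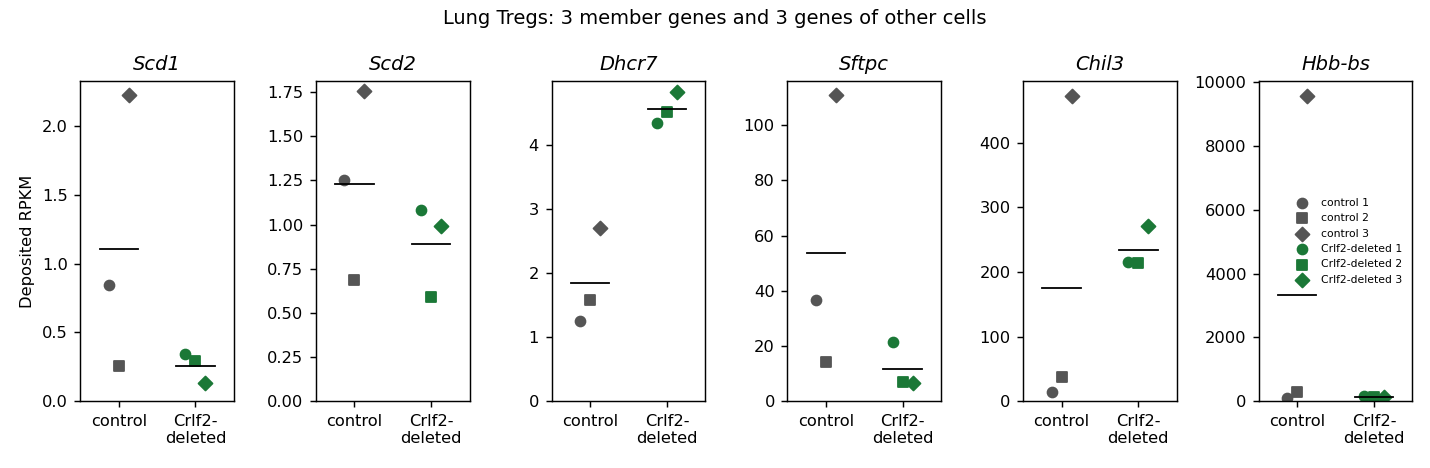
Deposited RPKM of Scd1, Scd2 and Dhcr7 and of 3 genes of other cells (Sftpc of alveolar epithelium, Chil3 of macrophages, Hbb-bs of red cells) in the 6 lung libraries, with a line at each group mean and each panel on its own scale from 0. Lung control 3 is the highest point for Scd1, Scd2, Sftpc, Chil3 and Hbb-bs, and the 3 Crlf2-deleted points of Dhcr7 lie above all controls. The other 11 epithelial markers, not drawn, were highest in lung control 1 among the controls.

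Of the mevalonate arm, Mvd was at 85.6, 81.4 and 60.3 CPM in the lung controls and at 52.0, 50.5 and 47.1 in the Crlf2-deleted libraries, without overlap (log2 fold change of -0.60 with an SE of 0.17, adjusted p = 0.141). Without lung control 3 it was called lower (-0.74, adjusted p = 0.038). Pmvk was at 30.1, 38.3 and 39.2 CPM and at 26.4, 21.4 and 25.7 (log2 fold change of -0.54 with an SE of 0.20, adjusted p = 0.241). Both enzymes were also lower with TSLP in spleen, and the difference between the comparisons was not tested. On the RPKM scale the lung values were near 0 for both, at -0.14 for Mvd and -0.10 for Pmvk with limma on log2(RPKM + 1). The median of all genes in that fit was 0.21, so both stayed below it. Fasn was at 154, 180 and 164 CPM and at 138, 143 and 126 (log2 fold change of -0.29 with an SE of 0.12, adjusted p = 0.313). On the RPKM scale its sign turned (0.10), though it too was below that median of all genes.

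The other members ranged from -0.33 for Fdps to 0.49 for Lss in log2 fold change, with overlapping groups. Msmo1, from its older symbol, was at 36.2, 30.1 and 31.1 CPM in the lung controls and at 24.2, 24.7 and 27.2 in the deleted libraries, without overlap (-0.36, adjusted p = 0.401). Of the wider lists, edgeR called 0 genes among 6 of other sterol synthesis, 10 of SREBP control and uptake, 10 of sterol efflux, 17 of other fatty acid synthesis and 14 of isoprenoid use. Among 22 genes of fatty acid activation and oxidation, Pparg, a nuclear receptor for fatty acids, was the 1 called gene. It was at 8.96, 8.21 and 14.9 CPM in the lung controls and at 49.7, 32.2 and 44.9 in the deleted libraries (log2 fold change of 1.93 with an SE of 0.30, adjusted p = 0.0261). This call held in 2 of the 6 fits that left out a library (adjusted p up to 0.178), those without lung control 3 and without deleted library 2. In the cell cycle list 19 of 20 genes had a negative value, and Birc5 was called lower (-1.17, adjusted p = 0.046), a call that held in 1 of the 6 such fits, without lung control 3 (adjusted p up to 0.238 in the others).

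The 4 groups differed far more in level than either comparison did. Of all reads on genes, the members held 0.506% in each TCR library, 0.682% and 0.709% with TSLP, 0.167% to 0.197% in lung controls and 0.212% to 0.215% in Crlf2-deleted libraries. These shares carry no TMM scaling. With library totals alone, the median log2 fold change of all genes was 0.24 with TSLP and 0.14 in lung, beside 0.44 and 0.23 for the members. Among genes with a read in any library, ranked by RPKM, the median member stood at percentile 89.9 to 90.7 in spleen libraries, 73.4 to 75.9 in lung controls and 76.3 to 79.1 in deleted libraries. Spleen and lung groups differ in tissue, culture, stimulation and possibly library preparation at the same time, which cannot be told apart, so these levels are set side by side without a test.

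The order of the genes also differed between the settings. In spleen, Fdps was at 124.5 ± 19.6 RPKM (SD, n = 2) in the TCR group and at 110.3 ± 5.96 with TSLP, and Scd2 at 86.8 ± 6.56 and 166.6 ± 5.34, so that they held the top ranks in both. In lung, Srebf2 ranked highest, at 12.6 ± 2.43 RPKM (SD, n = 3) in controls and 20.9 ± 1.81 in deleted libraries. RPKM carry no TMM scaling, so their differences between groups are not those of the 2 comparisons. On log2(RPKM + 1), the median difference of all genes was 0.20 with TSLP and 0.21 with Crlf2 deletion. After TMM, the log2 fold change of Srebf2 in lung was 0.30 (adjusted p = 0.329 in edgeR's test). Ebp (12 ± 2.01), Fdps (11.98 ± 3.33) and Acly (11.02 ± 3.46) lay within the spread of Srebf2 in the controls. Scd2 was at 1.23 ± 0.53 RPKM in lung controls and at 0.89 ± 0.26 in deleted libraries, rank 21 and 24 of 27. It supplied 23.4% and 23.1% of all member reads in the TCR libraries and 29.3% and 29.7% with TSLP, against 0.76% to 2.58% in lung libraries.

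Scd2 alone did not account for the gap. Without it, the other 26 genes held 0.387% and 0.389% of reads on genes in the TCR pair, 0.482% and 0.498% with TSLP and 0.162% to 0.213% in lung libraries. Hsd17b7 had the lowest level in spleen, at 0.99 ± 0.14 RPKM (SD, n = 2) in the TCR group and 2.19 ± 0.14 with TSLP. In lung the lowest was Acaca in controls (0.40 ± 0.16, SD, n = 3) and Scd1 in deleted libraries (0.26 ± 0.11). On the RPKM scale, Srebf2 and Ebp were closest in proportion between the TCR group and the lung controls. Srebf2 was at 19.2 ± 0.66 and 12.6 ± 2.43 RPKM and Ebp at 20.1 ± 1.69 and 12 ± 2.01. In CPM, scaled within each comparison, the direction turned. Srebf2 was at 245 and 230 CPM in TCR libraries and at 406, 304 and 305 in lung controls. Ebp was at 93.9 and 94.3 CPM and at 148, 126 and 96.9. The library total behind RPKM exceeded gene reads by a larger factor in lung. It was 44544572 beside 7970215 reads in lung control 1 and 73720321 beside 27866035 in TCR library 1.

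**Figure D5:**
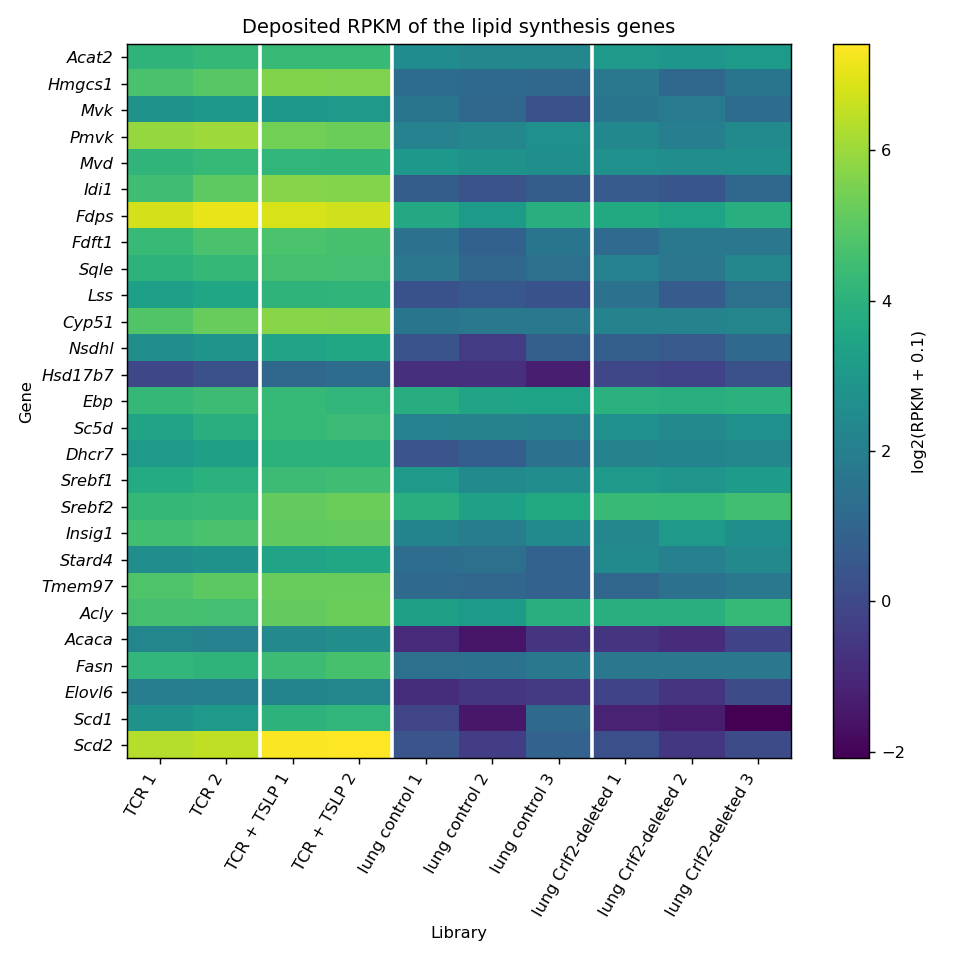
Deposited RPKM of the 27 genes in all 10 libraries, coloured by log2(RPKM + 0.1), with white lines between the groups. Scd2 and Fdps are brightest in the 4 spleen libraries, whereas in lung libraries Srebf2, Ebp, Fdps and Acly lead and Scd2 is among the dark rows.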

How the data were processed

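RNA-seq of 10 mouse Treg libraries was analysed, grouped by the labels. Per the file headers, the deposited counts give whole reads for each of 31682 RefSeq transcripts in a library. The authors also deposited RPKM, which divide those reads by transcript length and by a library total above the sum of listed reads. The submitters' processing notes name bedtools 2.25.0, SAMtools 0.1.8, edgeR, TopHat2 2.2.1 and Bowtie2 2.2.6, with the mm10 (GRCm38) build. The counter, its strand rule and its treatment of reads with several matches were not given in the sources used here. Therefore members that overlap other genes (Fdft1 with Ctsb, Srebf1 with Rai1, Acaca with Tada2a, Lss with 4930483K19Rik) or have close copies are uncertain. Per the labels' protocols, stimulated Tregs gave 100 to 500 ng of RNA for a stranded, ribosome-depleted kit and single-end reads of 50 bp. The lung kit is not stated separately.

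Each symbol was represented by its transcript of highest mean count. Differences in counts were tested in edgeR 4.0.16 under R 4.3.3 (quasi-likelihood, two-sided, robust, TMM, filterByExpr with a minimum count of 10) within each comparison, with Benjamini-Hochberg adjustment over all genes tested and a threshold of 0.05. Adjusted p-values come from edgeR unless another tool is given. SE is the log2 fold change divided by the root of F. Alternatives used DESeq2 1.42.0, limma 3.58.1 on log2(RPKM + 1) or log2(RPKM + 0.1), other scalings and filters, loess trends (span 0.3) of length and GC removed, a replicate block, and single libraries left out. The main edgeR fit was tested on simulated counts, and the alternative fits were not. The members and lists were chosen with earlier results of these data known. Named genes are all members, Crlf2 and up to 3 called genes with the smallest p per list, and some genes of the wider lists are not reported here. Promoter sequences are RefSeq's (GRCm38.p6).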

Additional observations from a re-analysis of the deposited data

How the results depend on the processing

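With TSLP, the counts of 11 members higher and 4 lower became 1 and 1 with all 4 groups in one fit (541 and 815 of all genes, against 2999 and 3051) and 16 and 1 with limma on log2(RPKM + 1) or log2(RPKM + 0.1). The median member moved from 0.21 to 0.44 with library totals alone, 0.55 and 0.58 with limma at the larger and smaller pseudocount, and 0.12 with the length trend removed, without or with the replicate block (0.1197). The median of all genes itself moved to 0.24, 0.20 and 0.33 under the first 3 of these. Leaving out single libraries gave 7 to 14 higher, 2 to 6 lower and medians of 0.15 to 0.24. With 1 library left in a group, it is assumed to vary like the other group. In lung, the 0 and 0 calls became 1 higher and 1 lower with DESeq2, 1 and 3 with all 4 groups in one fit and 2 higher with limma at either pseudocount. Leaving out single libraries gave 0 to 1 higher and 0 to 1 lower, and medians of -0.05 to 0.08. The lung median of 0.06 moved to 0.23 with library totals alone and to 0.33 and 0.47 with limma, while that of all genes moved to 0.14, 0.21 and 0.37. The cause was not tested. The replicate block left 11 and 4 calls with TSLP and 0 and 0 in lung, where calls over all genes fell from 98 and 129 to 32 and 89. Same-numbered libraries deviated from their group means with a correlation of -0.12 (TSLP) and of 0.08, -0.15 and -0.04 (lung). With so few libraries per group these deviations are tied together, so they cannot settle whether the numbers pair samples. A crossed block for TSLP, chosen after seeing the data, gave 14 higher and 4 lower. With a mean RPKM of at least 5, only 25 and 10 members were tested.

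Single genes also changed sign, all from values not called except Crlf2 with TSLP. With TSLP, library totals alone gave Acat2 0.0324, Mvk 0.0013, Fdft1 0.0238, Tmem97 0.16, Acaca 0.15 and Elovl6 0.12. In that order, limma gave 0.17, 0.12, 0.16, 0.29, 0.24 and 0.21 with a pseudocount of 1, and 0.17, 0.14, 0.17, 0.30, 0.29 and 0.25 with 0.1. Tmem97 was at 0.24 with the length trend removed (0.24 with the block, not called) and 0.27 with GC added, both called, where Mvk was at 0.13 and Crlf2, called lower in the report (-0.43, adjusted p = 0.00799), at 0.12 (adjusted p = 0.382). Fasn was at -0.0001 with median-of-ratios factors. In lung, library totals alone gave Hmgcs1 0.0782, Fdft1 0.0111, Ebp 0.0758, Srebf1 0.0396 and Tmem97 0.14. Limma gave Hmgcs1 0.23 and 0.31, Idi1 0.10 and 0.15, Fdps 0.10 and 0.11, Fdft1 0.18 and 0.25, Ebp 0.33 and 0.35, Srebf1 0.28 and 0.32, Tmem97 0.26 and 0.36, Fasn 0.10 and 0.13, and Sc4mol 0.0536 and 0.0697. Tmem97 was at 0.011 with all 4 groups in one fit and Mvk at -0.0395 with length and GC trends removed. Leaving out single libraries turned Acaca (-0.20 to 0.0778), Fasn (-0.11 to 0.17) and Sc4mol (-0.13 to 0.18) with TSLP. In lung it turned Hmgcs1 (-0.23 to 0.0511), Mvk (-0.31 to 0.53), Nsdhl (-0.0392 to 0.32), Ebp (-0.25 to 0.0755), Sc5d (-0.0481 to 0.19), Srebf1 (-0.28 to 0.0924), Insig1 (-0.17 to 0.24), Tmem97 (-0.18 to 0.12), Acaca (-0.0815 to 0.27) and Elovl6 (-0.0767 to 0.21).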
